A study of Mus musculus with 13 samples.

Results

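A set of genes of the voltage-gated sodium channel (Nav) family, 8 of the 50508 genes counted, was followed in single mouse sensory neurons. They were chosen by name: the pore-forming alpha subunits Scn1a (NaV1.1), Scn2a (NaV1.2), Scn7a (NaX), Scn8a (NaV1.6) and Scn9a (NaV1.7), and the auxiliary beta subunits Scn2b, Scn3b and Scn4b. Their rows were read over the neurons kept by the deposited annotation, by stage and by cluster, with the adult neurons that the annotation keeps but gives no cluster number described as excluded. All 8 had unique molecular identifiers (UMIs, each a captured RNA molecule) in the kept neurons.

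An alpha subunit forms the sodium pore and its voltage sensor, opens on depolarisation and carries the upstroke of the action potential. NaV1.1 and NaV1.6 are typical of fast-firing neurons and large myelinated axons, where NaV1.6 collects at nodes of Ranvier and axon initial segments. NaV1.2 is typical of immature and unmyelinated axons, and NaV1.7 is best known from nociceptors, where it amplifies small depolarisations. NaX, the product of Scn7a, is an atypical member that lacks the usual voltage sensitivity, responds to extracellular sodium and is also known from glia. Beta subunits are single-pass membrane proteins of the immunoglobulin fold that set channel gating and surface level, and beta4, the product of Scn4b, is the subunit associated with resurgent sodium current and repetitive firing.

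The study sequenced muscle proprioceptors, the sensory neurons that report muscle length and tension, from dorsal root ganglia at 4 ages. Adult (older than postnatal day 56), p12 and p0 neurons carried PV:Cre+/-;Rx3:Flp+/-;Ai65+/-, an intersection that turns on tdTomato in any neuron that has expressed both parvalbumin and Runx3, which also takes in some cutaneous afferents. The e14.5 neurons carried TrkC:tdTomato, so age and reporter cannot be told apart between e14.5 and p0. Mice of either sex were used, tdTomato-positive cells were sorted singly into 96-well plates, and animals were pooled. The plates, 5 adult, 4 p12, 2 p0 and 2 e14.5, served as replicates. Nothing says which animals a plate holds, and the paper reports fewer adult experiments than adult plates, so some of these share an experiment. The p-values thus measure the spread between plates, which may be technical.

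The annotation kept 586 of 1248 wells: 169 neurons at e14.5, 55 at p0, 154 at p12 and 208 in the adult. Kept UMIs per plate ranged from 680212 to 2387288, and the mean per neuron from 9669 on an e14.5 plate to 65165 on a p12 plate, so the e14.5 neurons were the shallowest. No 2 wells shared their UMI total, gene number and member UMIs, and the 96 well barcodes recur on all 13 plates as position codes. Pvalb was detected in 151 of 169 e14.5 neurons and in every kept neuron of the later ages. Of 10 nociceptor markers, Scn10a and Prdm12 had 0 UMIs in the 208 adult neurons, a count that allows up to 1.44% of neurons with a UMI (counting error only), whereas Tac1 was seen in 71 neurons (79.4 CPM), Calca in 17 and Scn11a in 8. As CPM, the UMIs of a gene per 1000000 UMIs of the neuron, the 10 summed satellite glia markers were at 76.7–85.7 CPM per plate at e14.5, 719–917 at p0, 2900–3144 at p12 and 3897–4954 in the adult. After p0 this was mostly S100b, which was in every p12 and adult neuron (means of 52.6, 259, 2632 and 3916 CPM at the 4 ages). The other 9 summed to 21.8–35.4, 491–628, 158–553 and 321–839 CPM, so they overlapped from p0 on. Below, a level is the mean CPM of the neurons on a plate, an error is the SD over plates unless marked SE, and log2 fold changes come from edgeR's quasi-likelihood test on UMIs summed per plate, called at a Benjamini-Hochberg adjusted p under 0.05 over all genes tested. UMIs were not divided by transcript length, so levels are compared across samples and not between genes.

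Of the members, 5 lie close together in the genome. Scn9a (chr2:66480080-66634962), Scn7a (chr2:66673425-66784914) and Scn1a (chr2:66270778-66440840) follow each other on the minus strand of chromosome 2 in GRCm38 (GENCODE M21), with 39240 bases between Scn1a and Scn9a and 38463 between Scn9a and Scn7a. Scn2b (chr9:45117782-45130070) and Scn4b (chr9:45138395-45154152) share the plus strand of chromosome 9, 8325 bases apart. Scn2a (chr2:65620771-65767447), Scn3b (chr9:40269217-40291618) and Scn8a (chr15:100869858-101045938) lie on the plus strand. The upstream sequences below are shown because these neighbours followed different courses with age. They come from RefSeq (GRCm38.p6), read 5′ to 3′ in the direction of the gene, end just before the annotated gene and have each CG dinucleotide in capitals.
Scn1a, chr2:66440841-66441087, minus strand: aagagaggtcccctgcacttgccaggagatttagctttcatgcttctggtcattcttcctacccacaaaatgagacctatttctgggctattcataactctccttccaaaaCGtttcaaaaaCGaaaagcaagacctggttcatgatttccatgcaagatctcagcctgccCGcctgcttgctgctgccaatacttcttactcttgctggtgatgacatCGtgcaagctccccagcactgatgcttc
Scn9a, chr2:66634963-66635212, minus strand: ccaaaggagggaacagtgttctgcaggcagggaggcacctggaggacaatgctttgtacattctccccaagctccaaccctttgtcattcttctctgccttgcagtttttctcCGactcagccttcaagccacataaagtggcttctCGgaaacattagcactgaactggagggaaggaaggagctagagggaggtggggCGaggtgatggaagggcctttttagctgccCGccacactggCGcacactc
Scn7a, chr2:66784915-66785160, minus strand: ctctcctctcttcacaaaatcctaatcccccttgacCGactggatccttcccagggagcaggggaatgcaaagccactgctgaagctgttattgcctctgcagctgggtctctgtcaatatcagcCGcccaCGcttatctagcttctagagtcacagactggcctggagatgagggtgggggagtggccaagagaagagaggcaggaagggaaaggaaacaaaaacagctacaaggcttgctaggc
Scn2b, chr9:45117626-45117781, plus strand: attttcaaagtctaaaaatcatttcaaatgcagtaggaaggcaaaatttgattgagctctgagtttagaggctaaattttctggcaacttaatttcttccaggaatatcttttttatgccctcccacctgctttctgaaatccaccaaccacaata
The 3 chromosome 2 neighbours hold 4, 5 and 3 CG dinucleotides in these stretches and Scn2b holds 0. In the full 250 bases before the RefSeq start, Scn2b had 1 CG and its neighbour Scn4b had 23, against a median of 6 (quartiles 2 to 16) over 32851 mouse promoters, of which 13.3% held as many as Scn4b. The first of the Scn8a starts had 30, reached by 5.94% of promoters. The letters ACCACA or TGTGGT, the core of RUNX sites, occur in 14.0% of promoters and were present once in the 250-base window of Scn2b and once in the upstream of the 2 Scn2a windows. TATAAA or TTTATA, found in 12.4%, was present only in the downstream Scn2a window among those examined. Of the 8 members, 7 were matched in the RefSeq promoters and Scn3b was not.

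Across the 4 ages, the first question was how the channel set of these neurons changed with maturation. Scn1a, Scn8a and Scn4b, the subunits associated with fast firing, were lowest at e14.5 and rose in steps. Scn2a, Scn9a, Scn2b and Scn3b were highest before or at birth and fell at different steps. Scn7a fell between e14.5 and p0 and was not called afterwards. Consecutive comparisons share the p0 or the p12 plates.

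**Figure D1:**
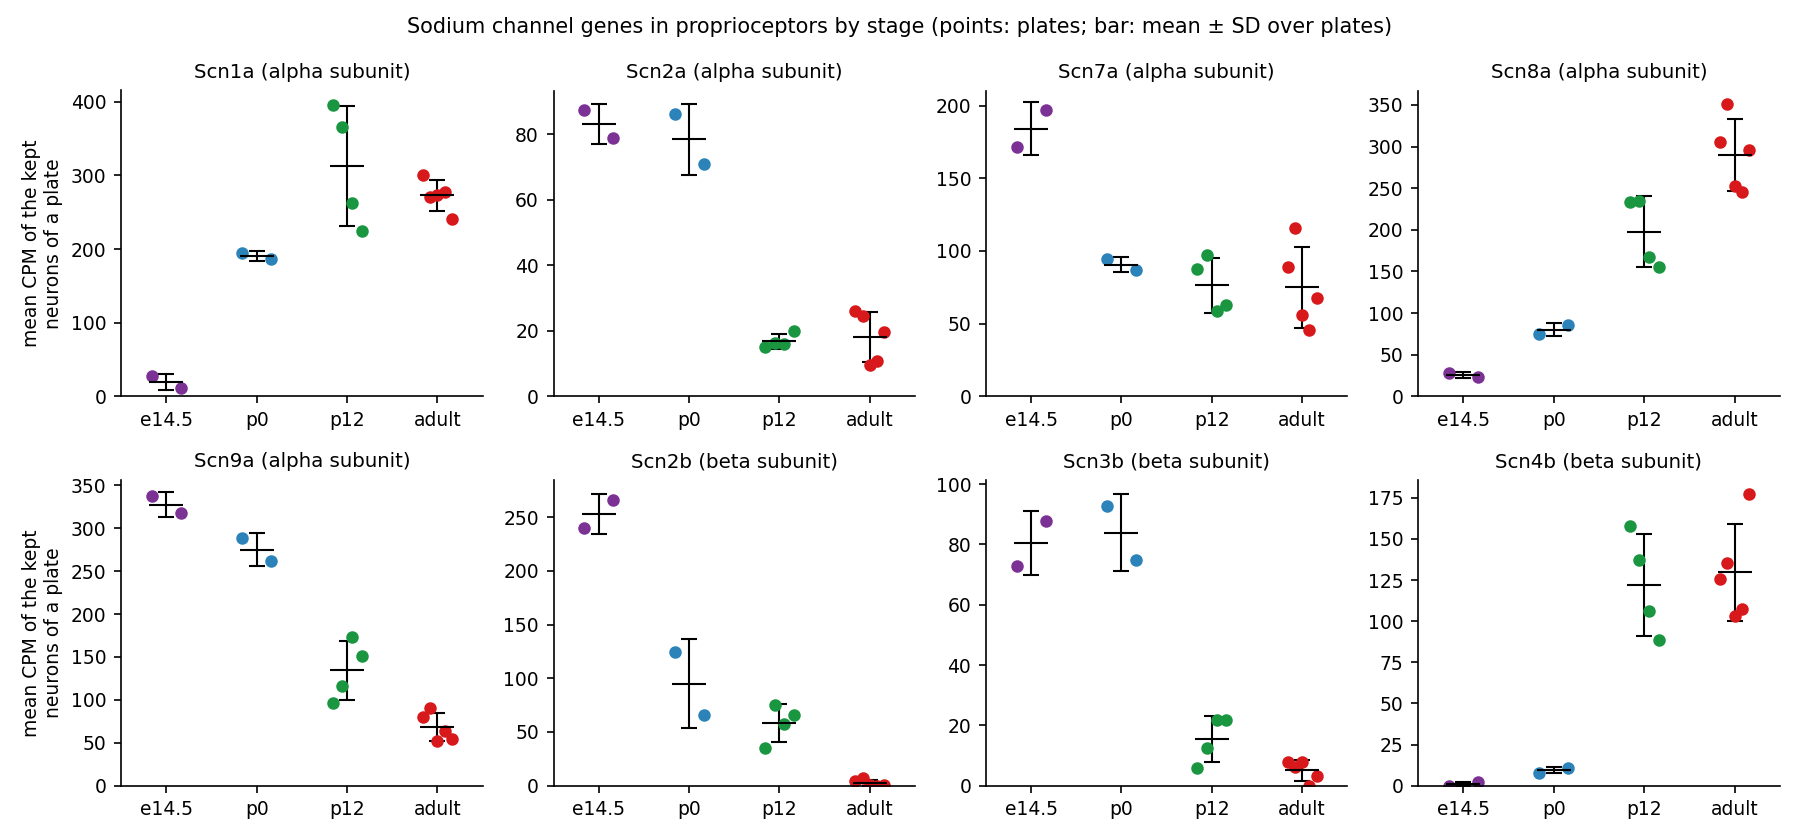
Mean CPM of the 8 genes on each plate at e14.5, p0, p12 and adult (points, 2, 2, 4 and 5 plates), with a bar at the mean and whiskers of 1 SD over plates; each gene has its own vertical axis. Scn1a, Scn8a and Scn4b climb from e14.5, whereas Scn2b ends at 0 to 6.94 CPM in the adult.

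Scn1a measured 27.7 and 11.8 CPM on the e14.5 plates, 195 and 186 at p0, 396, 365, 263 and 225 at p12, and 301, 271, 274, 277 and 241 in the adult. The p0 plates lay far above both e14.5 plates, and the adult plates lay within the p12 range. The log2 fold change was 3.11 ± 0.33 (SE) from e14.5 to p0 (edgeR adjusted p = 2.3e-05) and 0.81 ± 0.25 from p0 to p12 (edgeR adjusted p = 0.035). From p12 to adult it was -0.19 (95% interval -0.55 to 0.17; edgeR adjusted p = 0.52). The step from p0 to p12 was not called without p0 replicate 1 or 2 (edgeR adjusted p = 0.18 and 0.22) or p12 replicate 1 or 3 (0.063 and 0.051), nor with p12 replicates 3 and 4 alone (0.61, edgeR adjusted p = 0.10).

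Scn8a measured 27.9 and 22.9 CPM at e14.5, 74.4 and 85.8 at p0, 233, 235, 168 and 155 at p12, and 306, 351, 252, 245 and 296 in the adult. No 2 successive ages overlapped. The log2 fold changes were 1.89 ± 0.25 (SE; edgeR adjusted p = 0.00014), 1.32 ± 0.20 (0.00047) and 0.53 ± 0.15 (0.027). The first 2 steps were called in all 24 alternatives and the last in 14. Without adult replicate 1, 2 or 5, or p12 replicate 3 or 4, the last had an edgeR adjusted p of 0.058 to 0.091. It was 0.41 with p12 replicates 1 and 2 alone (edgeR adjusted p = 0.22), 0.37 with adult replicates 3 to 5 alone (0.14) and 0.51 without the filter on low counts (0.096).

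Scn4b was near absent at e14.5, with 0 and 2.05 CPM, reached 7.97 and 10.5 at p0, and rose to 158, 137, 106 and 88.3 at p12. The adult plates gave 126, 135, 103, 107 and 177. Only 2 UMIs were counted at e14.5 against 23 at p0, a ratio of rates of 9.49 (95% counting interval 2.35 to 83.1). The log2 fold change of 3.11 ± 0.71 (SE, edgeR adjusted p = 0.0056) depends on the prior count and ran from 1.66 to 6.77 over 24 alternatives. It was not called without e14.5 replicate 1 (edgeR adjusted p = 0.067). From p0 to p12 Scn4b rose by 3.67 ± 0.36 log2 units (edgeR adjusted p = 1.2e-05), a call kept in all 24 alternatives. The change to the adult was -0.01 (95% interval -0.41 to 0.38; edgeR adjusted p = 0.98).

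Scn9a, the NaV1.7 gene, measured 338 and 317 CPM at e14.5, 288 and 261 at p0, 96.8, 116, 174 and 151 at p12, and 80.6, 90.3, 52.5, 63.5 and 54.9 in the adult. The p12 plates were all below the p0 plates, and the adult plates all below the p12 plates. It fell by 1.13 ± 0.26 (SE) log2 units from p0 to p12 (edgeR adjusted p = 0.0076) and by 0.83 ± 0.21 from p12 to adult (0.019), after -0.29 from e14.5 to p0 (0.52). The first fall was not called without p0 replicate 1 or 2 (edgeR adjusted p = 0.081 and 0.053) and the second not without p12 replicate 3 or 4 (0.082 and 0.067). With p12 replicates 1 and 2 alone, which hold other clusters than replicates 3 and 4, the second was -0.39 (edgeR adjusted p = 0.33), and with adult replicates 1 and 2 alone it was -0.53 (edgeR adjusted p = 0.16).

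Scn2a measured 87.4 and 78.9 CPM at e14.5, 86.2 and 70.8 at p0, 15.0, 16.5, 15.9 and 20.0 at p12, and 26.0, 24.4, 9.60, 11.0 and 19.7 in the adult. Its change was a single step between birth and p12, of -2.11 ± 0.34 (SE; edgeR adjusted p = 0.00068), which was called in all 24 alternatives. The flanking comparisons gave -0.07 (95% interval -0.80 to 0.67) and -0.08 (-0.67 to 0.52).

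Scn7a measured 171 and 197 CPM at e14.5, 94.2 and 87.0 at p0, 87.4, 97.4, 58.5 and 62.6 at p12, and 89.1, 116, 55.9, 45.9 and 68.0 in the adult. The e14.5 plates were the highest, and the 3 later ages overlapped. It fell by 1.00 ± 0.27 (SE) log2 units from e14.5 to p0 (edgeR adjusted p = 0.014), and the later differences were -0.36 (95% interval -0.82 to 0.11) and -0.06 (-0.43 to 0.30). The fall was not called without e14.5 replicate 2 or p0 replicate 1 or 2 (edgeR adjusted p = 0.091, 0.080 and 0.099), nor with only e14.5 clusters 1 and 2 and the numbered adult clusters (0.051).

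Scn2b lost almost all of its UMIs by adulthood. Its levels were 240 and 266 CPM at e14.5, 124 and 65.5 at p0, 34.8, 75.5, 57.7 and 65.4 at p12, and 4.08, 6.94, 0.704, 0 and 0.809 in the adult, where 9 UMIs were counted in 7 of 208 neurons. The adult plates lay far below every earlier plate. The log2 fold changes were -1.50 ± 0.43 (SE; edgeR adjusted p = 0.019), -0.94 ± 0.38 (0.10) and -5.40 ± 0.47 (1.0e-05). The last was called in all 24 alternatives, and the first not without e14.5 replicate 1 or 2 or p0 replicate 2 (edgeR adjusted p = 0.069, 0.089 and 0.19).

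Scn3b measured 72.8 and 87.8 CPM at e14.5, 92.9 and 74.9 at p0, 5.85, 12.5, 21.6 and 21.9 at p12, and 7.95, 6.28, 7.80, 0 and 3.20 in the adult. The adult held 26 UMIs in 21 of 208 neurons. It fell by 2.58 ± 0.47 (SE) log2 units between p0 and p12 (edgeR adjusted p = 0.0017) and by 2.15 ± 0.52 between p12 and adult (0.015), after 0.03 (95% interval -0.97 to 1.03) around birth. The second fall was not called without p12 replicate 3 or 4 (edgeR adjusted p = 0.071 and 0.061) and was -0.99 with p12 replicates 1 and 2 alone (0.50).

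Between e14.5 and p0, 5 of 8 members were called, against 27.8% of the 11939 genes tested. Scn1a, Scn8a and Scn4b were called higher, as were 14.7% of genes, and Scn7a and Scn2b lower, as were 13.1%. Between p0 and p12, 6 of 8 were called, against 18.1% of genes: Scn1a, Scn8a and Scn4b higher (9.1% of genes) and Scn2a, Scn9a and Scn3b lower (9.01%). Between p12 and adult, 4 of 8 were called, against 14.1%: Scn8a higher (7.57%) and Scn9a, Scn2b and Scn3b lower (6.56%). The members' median log2 fold change was -0.02, -0.65 and -0.13 over the 3 steps, beside 0.01, 0.02 and 0.04 for all genes tested. Leaving out the neurons of higher glial share, a split that S100b dominates after p0, took away the calls of Scn4b (2.33, edgeR adjusted p = 0.13) and Scn7a (-1.05, edgeR adjusted p = 0.057) around birth and of Scn1a (0.73, edgeR adjusted p = 0.084) and Scn9a (-0.82, edgeR adjusted p = 0.093) from p0 to p12. In all neurons they were 3.11 for Scn4b, 0.81 for Scn1a and -1.13 for Scn9a, with the value for Scn7a given above. With S100b left out of the share, Scn4b (3.54, edgeR adjusted p = 0.0089) and Scn9a (-1.41, edgeR adjusted p = 0.0011) kept those calls and Scn7a (-0.96, edgeR adjusted p = 0.062) and Scn1a (0.78, edgeR adjusted p = 0.055) did not. From p12 to adult the calls of Scn8a (0.47, edgeR adjusted p = 0.066) and Scn9a (-0.59, edgeR adjusted p = 0.068) were then lost. Thinning each neuron to 7000 UMIs kept the direction of each called difference and took away the calls of Scn4b around birth (1.66, edgeR adjusted p = 0.34), of Scn1a (0.68, 0.12), Scn9a (-0.73, 0.14) and Scn3b (-1.55, 0.054) from p0 to p12 and of Scn8a from p12 to adult (0.54, 0.10). The values of Scn4b, Scn1a, Scn9a and Scn3b were then nearer 0 than in unthinned neurons, and that of Scn8a was not. Thinning also left out the kept neurons with fewer than 7000 UMIs, 18 at e14.5 and 2 at p12.

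**Figure D2:**
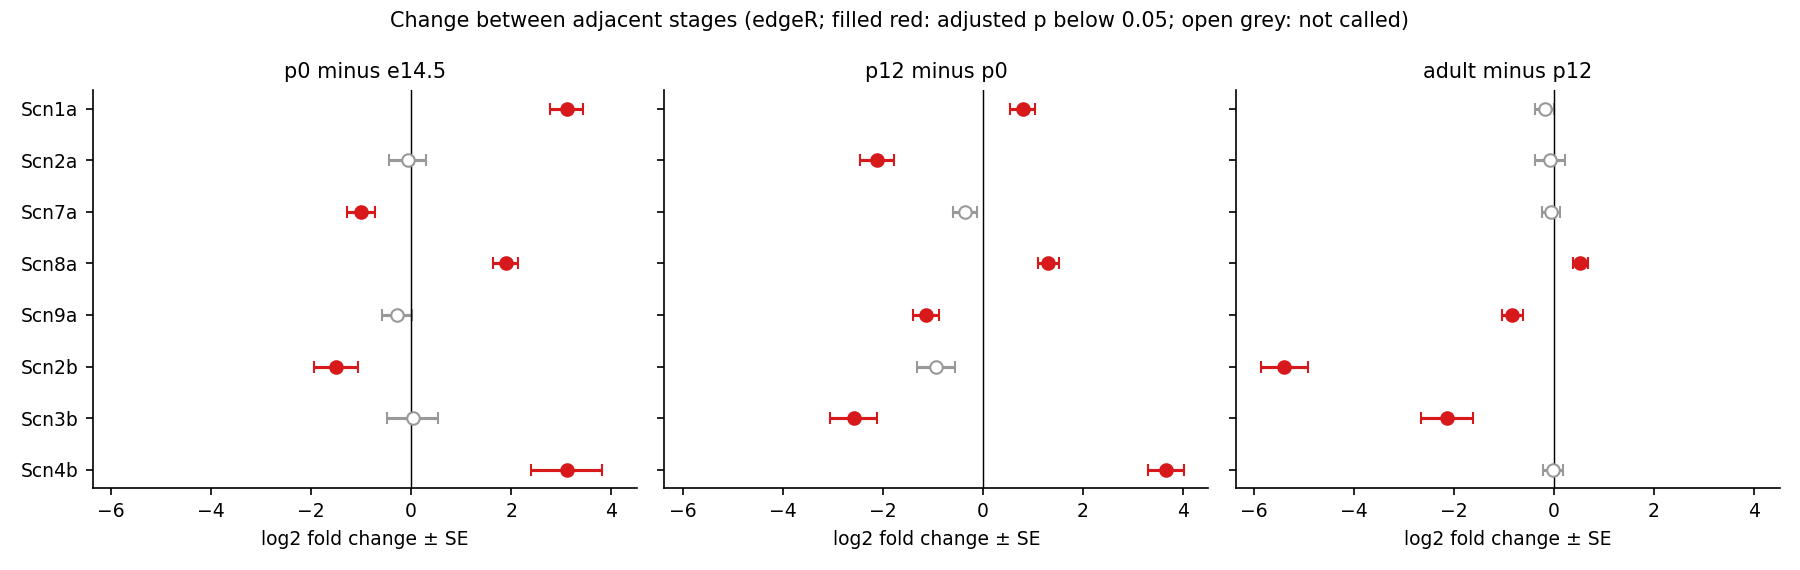
Log2 fold change of the 8 genes at each step (points, whiskers are 1 SE from edgeR), with filled red points for calls at adjusted p under 0.05. Scn1a, Scn8a and Scn4b lie right of 0 from e14.5 to p12, and Scn2b lies at -5.40 from p12 to adult.

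The UMIs of the listed genes of each subunit class were also divided by gene within a plate, a share of captured molecules not corrected for transcript length. Among the 5 alpha subunits, Scn9a held 51.0% ± 1.08 of the UMIs at e14.5 (n = 2 plates), 37.6% ± 1.00 at p0 (n = 2), 16.2% ± 5.72 at p12 (n = 4) and 8.91% ± 1.26 in the adult (n = 5). Over the same ages Scn8a went from 3.70% ± 0.281 to 12.5% ± 2.53, 29.0% ± 1.28 and 41.8% ± 2.85. Scn1a held 3.30% ± 1.95, 26.1% ± 0.03, 42.8% ± 4.64 and 37.8% ± 4.52. At p12 and in the adult the captured UMIs of these 5 genes thus came mainly from Scn8a and Scn1a. Their shares overlapped in the adult (38.4–45.2% and 32.2–42.4%). The alpha subunit Scn3a, with 128 UMIs at e14.5 and 15 in the adult, is outside these sums.

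Among the 3 beta subunits, Scn2b held 76.3% ± 1.38 of the UMIs at e14.5 and Scn4b 0.313% ± 0.442. In the adult Scn4b held 96.8% ± 2.23 and Scn2b 0.833% ± 0.679. The share of Scn3b was highest at p0, at 45.6% ± 7.21, between 23.4% ± 0.934 at e14.5 and 6.66% ± 4.01 at p12.

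**Figure D3:**
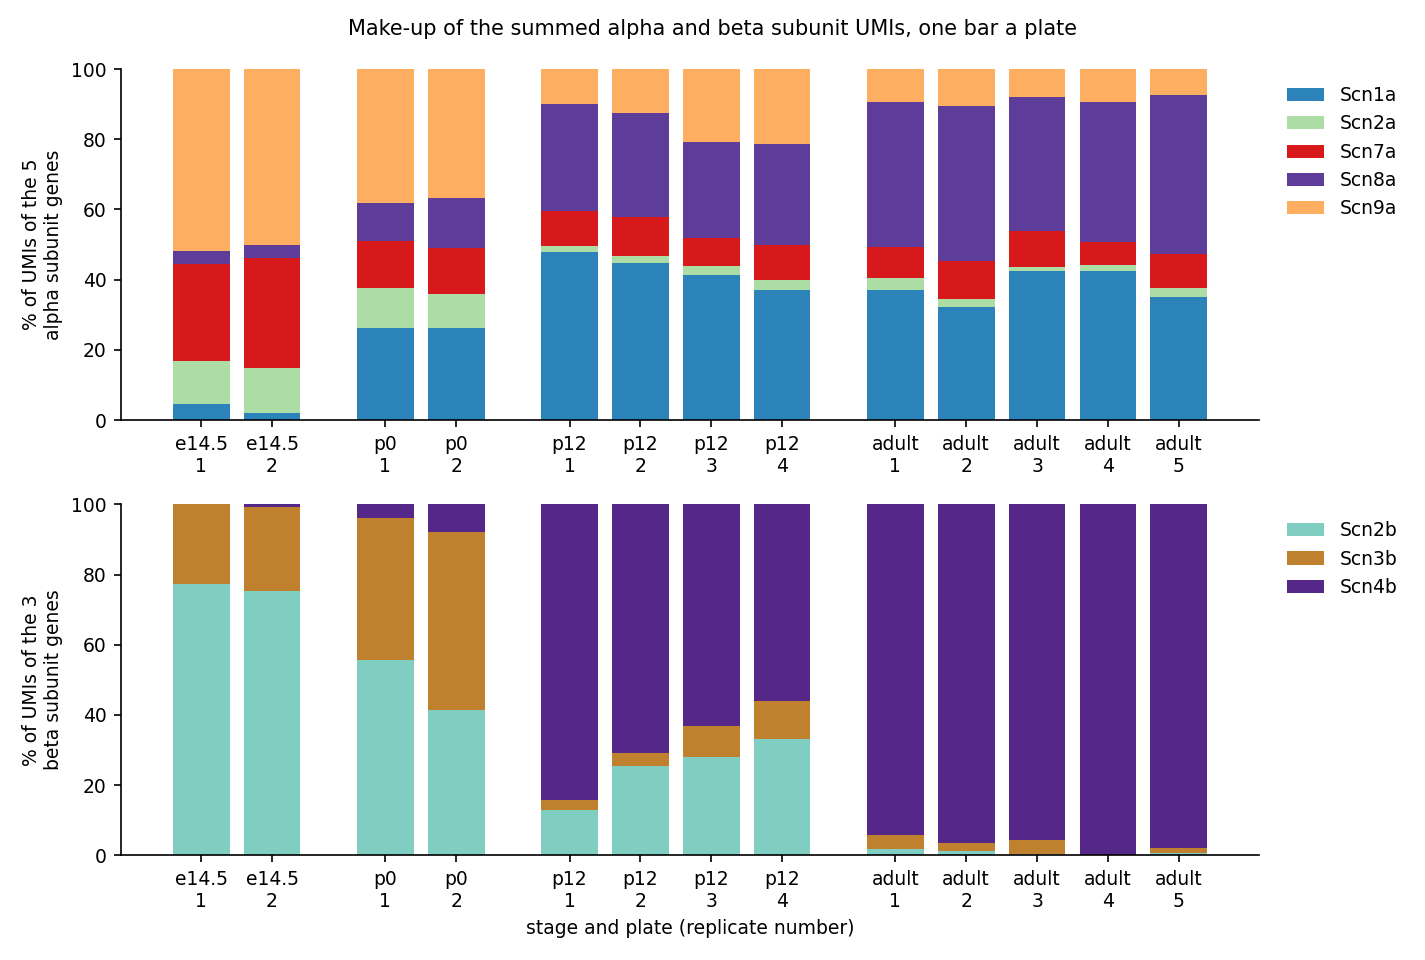
Share of the UMIs of the 5 alpha subunits (upper panel) and of the 3 beta subunits (lower panel) held by each gene, in percent, as stacked bars for each of the 13 plates ordered by age. Scn9a and Scn2b hold the largest shares at e14.5, and Scn1a, Scn8a and Scn4b in the adult.

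Of the other family members described, Scn3a, the embryonic alpha subunit NaV1.3, fell from 66.1 ± 9.77 CPM at e14.5 to 24.7 ± 7.93, 6.36 ± 3.44 and 1.85 ± 0.897, and was called lower at each step (edgeR adjusted p = 0.0072, 0.0018 and 0.012). The last step was called in 19 of 24 alternatives. Scn4a and Scn10a had at most 1 UMI at any age and Scn11a had 4 to 8.

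A list of 20 partner genes, for proteins that bind, anchor or traffic Nav channels, also included the leak channel gene Nalcn, and 16 were tested. Around birth 9 were called, beside 27.8% of all genes, 6 higher and 3 lower (median log2 fold change 0.50). Those with the largest changes were Cntnap1, the paranodal Caspr (3.31), Pdzd2 (3.28), the cell adhesion molecule Nrcam (-2.53), the sodium leak channel Nalcn (2.21) and Fgf11 (1.78). From p0 to p12, 5 were called, beside 18.1% of genes, all higher: Nrcam (2.57), Pdzd2 (2.25), the nodal spectrin Sptbn4 (1.70), Snap25 (1.43) and the channel-binding Fgf12 (0.70), with a list median of 0.30. From p12 to adult, Nfasc, which anchors nodal proteins, was higher (0.70) and Pdzd2 (-0.97) and Fgf13 (-0.71) were lower, 3 of 16 beside 14.1% of genes (median 0.03).

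The adult clusters addressed whether proprioceptor subtypes differ in channel transcripts. In the naming that goes with the annotation, cluster 1 stands for group Ia muscle spindle afferents, cluster 5 for group Ib Golgi tendon organ afferents and clusters 2 to 4 for putative group II spindle afferents. Scn7a differed most: it was low in cluster 1, higher in cluster 3 and highest in clusters 4 and 5, while the 2 plates of cluster 2 lay below and above those of cluster 1. Scn4b was lowest in cluster 1 on each plate, among clusters with at least 2 neurons there, and high in cluster 5. The clusters were found from the same neurons, so the tests here only describe how far plates repeat a cluster's level. Clusters 2 and 4 were sampled on replicates 1 and 2 alone and cluster 3 mostly on replicates 3 to 5.

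Of the 6 members tested, Scn7a and Scn4b differed among the 5 clusters (edgeR adjusted p = 2.8e-06 and 0.00033), beside 9.67% of 7370 genes. Scn2b and Scn3b were too sparse to be tested. Of the 9 adult Scn2b UMIs, 6 were in cluster 4, and of the 26 Scn3b UMIs, 10 were in cluster 4 and 8 in excluded neurons.

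Scn7a measured 17.3, 6.43, 10.7, 9.06 and 7.97 CPM on the 5 plates of cluster 1 and 125, 165, 198, 84.9 and 118 in cluster 5. Cluster 2 gave 0 and 52.1 CPM, cluster 3 gave 57.4, 39.0, 26.6 and 37.1 on replicates 2 to 5, and cluster 4 gave 111 and 191. No plate of cluster 1 reached any plate of clusters 3, 4 or 5, and clusters 4 and 5 overlapped. Per neuron, 21 of 51 in cluster 1 had a UMI and the highest stood at 58.4 CPM, whereas 29 of 31 in cluster 5 did, with a median of 137 CPM and a highest of 564. At 7000 UMIs per neuron the shares with a UMI were 7.84% in cluster 1, 20.0% in cluster 2, 19.5% in cluster 3, 64.3% in cluster 4 and 54.8% in cluster 5.

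Cluster 5 exceeded cluster 1 in Scn7a by 3.72 ± 0.36 (SE) log2 units (edgeR adjusted p = 9.1e-07) and in Scn4b by 1.52 ± 0.20 (3.8e-05). These were 2 of 6 members, beside 4.76% of genes. The Scn7a difference was called in the 15 alternatives that tested it, both plate sets included, and was not tested in thinned neurons. Scn4b measured 67.5, 47.7, 51.0, 59.1 and 65.3 CPM in cluster 1 and 146, 197, 161, 158 and 197 in cluster 5, with no overlap, and lost its call in thinned neurons, where the difference was 2.02 ± 0.54 (edgeR adjusted p = 0.063). Scn9a measured 35.3–87.2 CPM in cluster 1 and 54.5–111 in cluster 5, a difference of 0.81 ± 0.27 (edgeR adjusted p = 0.099). With replicates 3 to 5 alone this difference was 1.21 (edgeR adjusted p = 0.013), and with replicates 1 and 2 alone 0.45. It was called with the plate as a block (edgeR adjusted p = 0.016) and without replicate 1 (0.029), the plate on which cluster 1 was highest.

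Against the mean of the other clusters, cluster 1 was lower in Scn7a by 2.70 ± 0.35 (SE) log2 units (edgeR adjusted p = 2.9e-05) and in Scn4b by 1.10 ± 0.18 (0.00042), 2 of 6 members beside 5.69% of genes. Leaving out replicate 2 left cluster 2 with 1 plate that held 0 Scn7a UMIs, and the Scn7a value was then -0.71 ± 6.81 (edgeR adjusted p = 0.99). With replicates 1 and 2 alone it was -2.39 ± 0.68 (edgeR adjusted p = 0.061). Cluster 4 was higher in Scn7a by 1.98 ± 0.36 (edgeR adjusted p = 0.0032), 1 of 6 beside 2.73% of genes, and the difference ran from 1.87 to 3.33 over 14 alternatives. Cluster 5 was higher in Scn7a by 1.96 ± 0.26 (edgeR adjusted p = 6.2e-05) and in Scn4b by 0.80 ± 0.17 (0.0055), 2 of 6 beside 4.03%. Its Scn7a difference ran from 1.72 to 3.63 over 14 alternatives. Its Scn4b call held in 11 of 15 alternatives and was lost without replicate 2 (0.63, edgeR adjusted p = 0.15), with replicates 1 and 2 alone (0.79, 0.075), with neurons of lower glial share (0.93, 0.080) and in thinned neurons (0.96, 0.37). The Scn4b call of cluster 1 was lost with neurons of lower glial share (-0.81, edgeR adjusted p = 0.16) and in thinned neurons (-1.57, 0.088). No member was called for cluster 2 or 3.

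Scn8a and Scn1a were not called among the 5 clusters (edgeR adjusted p = 0.38 and 0.41), and Scn8a was called with the plate as a block (0.0027). Scn1a lay within 231–351 CPM on the plates of clusters 1 and 5, and the difference of cluster 5 from cluster 1 was 0.28 (edgeR adjusted p = 0.39). Scn8a measured 403, 449, 326, 276 and 360 CPM in cluster 1 and 181 and 257 in cluster 4. Its differences from the other clusters, 0.32 ± 0.16 (SE) for cluster 1 and -0.58 ± 0.25 for cluster 4, were not called (edgeR adjusted p = 0.30 and 0.25). They became 0.44 and -0.74 with the plate as a block (edgeR adjusted p = 0.0012 and 0.0063). On replicates 1 and 2 alone, which hold all of cluster 4, they were 0.39 and -0.83, with cluster 3 resting on 2 neurons. Clusters 1 and 5 together differed from clusters 2 to 4 in 0 of 6 members, beside 5.63% of genes. At an unadjusted p under 0.05 edgeR also gave 0, DESeq2 called 0, and with the plate as a block Scn8a alone was called (0.41, edgeR adjusted p = 0.0041).

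**Figure D4:**
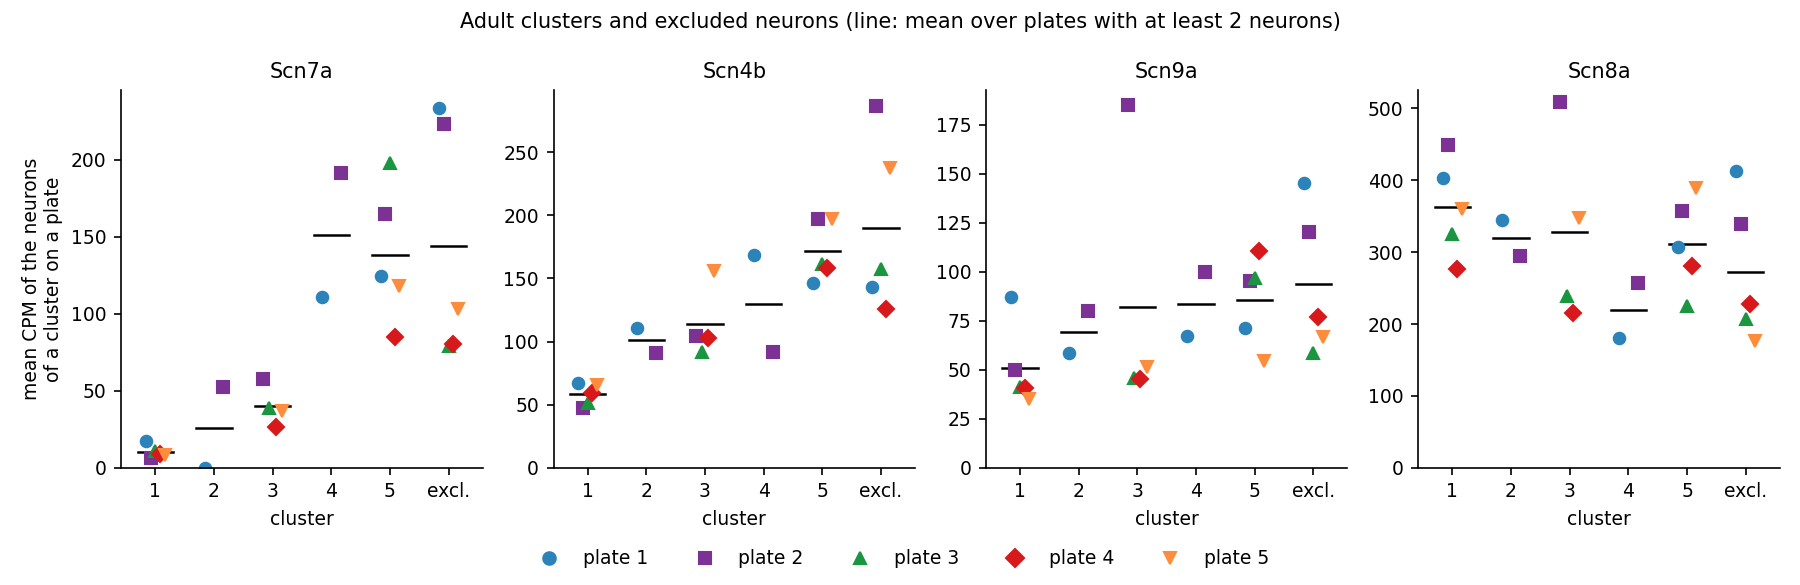
Mean CPM of Scn7a, Scn4b, Scn9a and Scn8a in each adult cluster and in the excluded neurons (points are plates with at least 2 neurons of the cluster, marked by plate; lines are their mean). For Scn7a the cluster 1 plates lie at 6.43 to 17.3 CPM, below all plates of clusters 3 to 5, and Scn4b is lowest in cluster 1.

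Summed markers listed for other cells differed between some of these clusters, though some of the listed genes are also expressed in proprioceptors. Summed satellite glia markers were 3730–4927 CPM in cluster 1 and 4055–4878 in cluster 5, or 203–694 and 104–645 without S100b, and summed Schwann cell and myelin markers 26.1–48.8 and 28.1–104. Cluster 4 held 58–142 CPM of the latter, and 169–215 CPM of summed nociceptor markers, nearly all of it Tac1, against 0 to 47.9 in cluster 1. Summed cutaneous mechanoreceptor markers were 446–808 CPM in cluster 1, 261–489 in cluster 5 and 277–328 in cluster 4, and summed proprioceptor markers 4902–6889, 3486–4675 and 2428–2635. Mean UMIs per neuron were 61460 in cluster 1, 57451 in cluster 5 and 21432 in cluster 4. With neurons of lower glial share alone, Scn7a in cluster 5 against 1 was 3.23 ± 0.48 (SE; edgeR adjusted p = 0.00062), and 3.63 ± 0.35 with S100b left out of the share (2.1e-06); the part of the other markers was not tested.

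Of the 14 partner genes tested in cluster 1 against the others, 4 were called, beside 5.69% of genes. Fgf12 was higher (0.46) and Nalcn (-2.04), Fgf13 (-0.99) and the ubiquitin ligase Nedd4l (-0.98) were lower. In cluster 5 against 1, Nalcn (1.57), Fgf13 (1.35) and Nedd4l (1.14) were higher, 3 of 14 beside 4.76% of genes.

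To place the plate sets beside these clusters, replicates 1 and 2 were compared with replicates 3 to 5 within clusters 1 and 5. None of 6 members was called, whereas 20.1% of 6985 genes were. Scn8a had an unadjusted p of 0.022 (log2 fold change 0.32, edgeR adjusted p = 0.087), was the only member under 0.05 by edgeR, and was called without replicate 5 (0.011). DESeq2 called 0 members.

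The 42 excluded adult neurons had Scn7a levels of 233, 223, 79.2, 80.5 and 103 CPM on the 5 plates, against 70.3, 93.9, 48.9, 34.3 and 49.0 in the numbered clusters, higher on each plate. The log2 difference was 1.16 ± 0.30 (SE; edgeR adjusted p = 0.0495), the only call among 5 members tested, beside 3.31% of 6408 genes. It was called with the plate as a block (1.21, edgeR adjusted p = 0.00013) and lost whichever replicate was left out (0.18, 0.086, 0.20, 0.053 and 0.10 without replicates 1 to 5). With neurons of lower glial share it was 1.17 (edgeR adjusted p = 0.15), and with S100b left out of the share, which leaves 12 excluded neurons and 1 each on replicates 1 and 2, the sign turned (-0.42 ± 0.46, edgeR adjusted p = 0.80). Scn4b measured 144, 287, 158, 125 and 238 CPM in excluded and 124, 104, 86.4, 101 and 144 in numbered neurons, a difference of 0.60 ± 0.24 (edgeR adjusted p = 0.25; 0.013 with the block). Summed nociceptor markers were 33.2–448 CPM in the excluded and 4.9–73.3 in the numbered neurons, Schwann and myelin markers 53.9–255 and 41.3–73.3, and summed proprioceptor markers 2273–3012 and 3754–5501, which did not overlap. Their part in these differences was not tested. Among partner genes, Fgf13 was higher (0.78) and Fgf12 lower (-0.56), 2 of 14 tested beside 3.31% of genes.

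At p12 the clusters lay on separate plates, clusters 2 and 3 on replicates 1 and 2 and clusters 1, 4 and 5 on replicates 3 and 4, so comparisons across these sets cannot be told apart from plates. Within each set a small cluster stood out in the same genes: cluster 2 (8 neurons) against 3, and cluster 5 (8 neurons) against 1 and 4. Both had little Scn9a and Scn7a and 0 UMIs of Scn2b. Over all 5 clusters, 7 of 7 members tested differed, beside 31.5% of 6209 genes, with 3 without replicate 3 and 4 without replicate 4, a test that spans both sets of plates. Scn4b was called in 5 of 12 alternatives there, and not with DESeq2 (adjusted p = 0.19), with neurons of lower glial share (edgeR adjusted p = 0.21) or with S100b left out of that share (0.16).

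Scn2b measured 0 CPM on both plates of cluster 2 and on both plates of cluster 5. It measured 59.7 and 98.1 in cluster 3, 67.3 and 79.9 in cluster 1 and 61.1 and 41.0 in cluster 4. Cluster 2 had 0 of 607113 UMIs against 53 in cluster 3, at least 12.5-fold lower at a floor of 3 UMIs over the cluster, and cluster 5 had 0 of 392545 against 164 in clusters 1 and 4, at least 7.50-fold lower. The edgeR adjusted p was 0.0001 and 0.00025, and the latter 0.39 without replicate 3. In 8 neurons, 0 with a UMI allows a share of up to 37.5%.

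Scn9a measured 20.4 and 39.7 CPM in cluster 2 against 151 and 139 in cluster 3, and 19.3 and 25.5 in cluster 5 against 289 and 192 in cluster 1 and 132 and 77.5 in cluster 4. The groups did not overlap. The log2 differences were -2.38 ± 0.39 (SE; edgeR adjusted p = 0.00028) and -2.95 ± 0.43 (4.4e-05). Cluster 1 exceeded cluster 4 by 1.14 ± 0.24 (0.014), the only member of 7 called there, beside 0.966% of genes. Leaving out replicate 1 took the first to an edgeR adjusted p of 0.089, thinning took it to -1.76 ± 0.84 (edgeR adjusted p = 0.39), leaving out replicate 3 took the second to 0.33, and leaving out replicate 3 or 4 took the last to 0.45 and 0.50. The last was also lost with DESeq2 (1.21, adjusted p = 0.074), in thinned neurons (0.81, edgeR adjusted p = 0.20) and with neurons of lower glial share (1.02, edgeR adjusted p = 0.22; 0.76 and 0.42 with S100b left out).

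Scn7a measured 43.2 and 11.5 CPM in cluster 2, 119 and 123 in cluster 3, 16.2 and 0 in cluster 5, 72.9 and 68.3 in cluster 1 and 56.9 and 57.0 in cluster 4. It was lower in cluster 2 than 3 by a log2 difference of -1.96 ± 0.37 (SE; edgeR adjusted p = 0.0021) and in cluster 5 than 1 and 4 by -2.35 ± 0.54 (0.0076). The latter was not called without replicate 3 or 4 (edgeR adjusted p = 0.33 and 0.075) or with DESeq2 (-2.43, adjusted p = 0.051). With Scn9a and Scn2b these were 3 of 7 members for cluster 2 against 3, beside 3.91% of genes.

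Scn8a went the other way. It measured 309 and 266 CPM in cluster 5 against 124 and 130 in cluster 1 and 170 and 197 in cluster 4, a difference of 0.90 ± 0.20 (SE; edgeR adjusted p = 0.0067), so that 4 of 7 members were called for cluster 5, beside 6.88% of genes. Without replicate 3 or 4 its edgeR adjusted p was 0.75 and 0.066, and in thinned neurons the difference was 0.99 (edgeR adjusted p = 0.17). In cluster 2 it measured 335 and 278 against 160 and 222 in cluster 3 (0.64 ± 0.21, edgeR adjusted p = 0.099; 0.023 with the plate as a block and 0.016 without replicate 2). Scn1a and Scn4b were not called in either comparison.

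**Figure D5:**
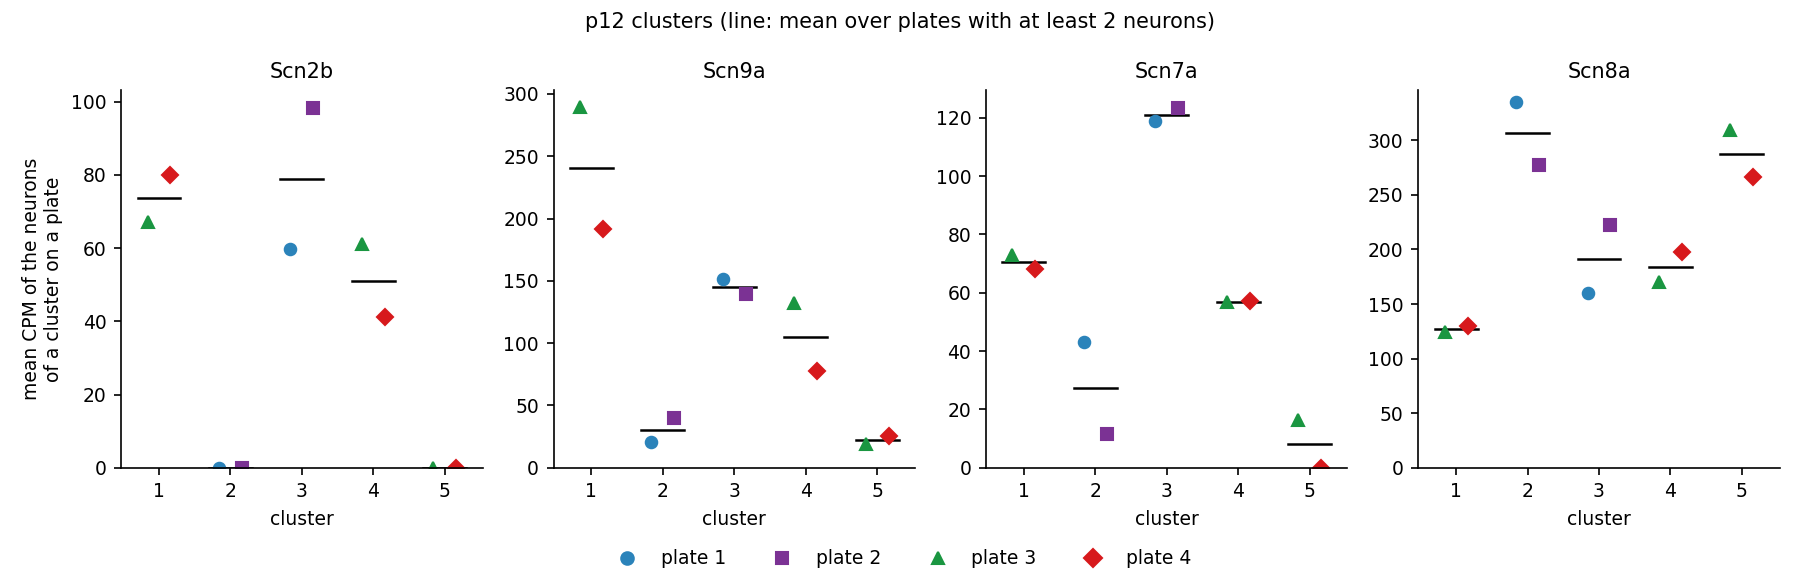
Mean CPM of Scn2b, Scn9a, Scn7a and Scn8a in each p12 cluster on each plate (points, 2 plates per cluster, with a line at their mean; replicates 1 and 2 hold clusters 2 and 3, replicates 3 and 4 hold clusters 1, 4 and 5). In clusters 2 and 5 Scn2b is at 0 on each plate and Scn9a at 19.3 to 39.7 CPM, while Scn8a is at 266 to 335.

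Mean UMIs per neuron were 75889 in cluster 2, 50299 in cluster 3, 49068 in cluster 5, 31619 in cluster 4 and 16306 in cluster 1. Thinned to 7000 UMIs, 77.0% of cluster 1 neurons, 76.5% of cluster 3 and 50.0% of cluster 4 had an Scn9a UMI, against 12.5% in cluster 2 and 25% in cluster 5. Summed nociceptor markers were 282–347 CPM in cluster 1, 53.3–70.0 in cluster 3, 15.7–84.1 in cluster 4, 6.3–19.8 in cluster 2 and 0 in cluster 5. Mrgprd, P2rx3, Th and Prdm12 had 0 UMIs in the 154 p12 neurons. The part of these markers in the differences was not tested. Summed satellite glia markers were 2442–2788 CPM in cluster 1, 3075–3315 in cluster 4 and 2991–3443 in cluster 5, and with neurons of lower glial share alone none of the 4 calls for cluster 5 was kept (edgeR adjusted p = 0.11 for Scn7a, 0.17 for Scn8a, 0.054 for Scn9a and 0.10 for Scn2b). The differences were then 1.00 for Scn8a and -3.09 for Scn9a, against 0.90 and -2.95 in all neurons, and the differences of Scn7a and Scn2b kept their sign. Without S100b the satellite markers were 95.2–231, 155–276 and 25.5–405 CPM in clusters 1, 4 and 5, and with S100b left out of the share all 4 calls were kept (edgeR adjusted p = 0.030 for Scn7a, 0.0070 for Scn8a, 0.0010 for Scn9a and 0.00098 for Scn2b). Of the 14 partner genes tested, 2 were called for cluster 2 against 3, beside 3.91% of genes, and 3 for cluster 5, beside 6.88%: Fgf13 was lower in cluster 2 than 3 (-1.93) and in cluster 5 than 1 and 4 (-1.48), as was S100a10, the p11 annexin light chain (-0.71 and -0.82), and Fgf12 was higher in cluster 5 (0.65).

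At p0, where 55 neurons formed 3 clusters, none of 7 members tested differed between clusters by edgeR (1.52% of 5061 genes did) or DESeq2, and Scn1a was the only member with an unadjusted p under 0.05 (0.027). Scn1a measured 211 and 206 CPM in cluster 1, 149 and 123 in cluster 2 and 200 and 193 in cluster 3. Scn4b, at 18.9 and 29.6 CPM in cluster 2 and 0 to 6.57 elsewhere, was too sparse to be tested.

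At e14.5 Scn7a was lower in cluster 1, at 99.3 and 93.7 CPM, than in cluster 2, at 168 and 242. The log2 difference was -1.25 ± 0.29 (SE, edgeR adjusted p = 0.018), 1 of 7 members beside 2.65% of 4912 genes. Of all genes called, 128 were lower in cluster 1 and 2 were higher. Mean UMIs per neuron were 8475 in cluster 1 and 11251 in cluster 2. The Scn7a difference was called neither by DESeq2 (-1.24, adjusted p = 0.24) nor in thinned neurons (-0.92, edgeR adjusted p = 0.20). Thinning left out 11 of the 41 cluster 1 neurons. Scn2b measured 75.2 and 199 CPM in cluster 1 and 246 and 313 in cluster 2 (-1.04 ± 0.32, edgeR adjusted p = 0.12; 0.027 with the plate as a block). Clusters 3 and 4 against 1 and 2 gave 0 of 7 by edgeR, beside 1.18% of genes, and 0 by DESeq2. Scn2a (-1.25) and Scn7a (0.71) had an unadjusted p under 0.05 there, 0.031 and 0.027. Summed proprioceptor markers were 703–767 CPM in cluster 3, against 1968–2063 in cluster 1 and 2088–2256 in cluster 2, and summed cutaneous mechanoreceptor markers 742–779, against 187–285 and 272–372. Clusters 3 and 4 hold 34 and 6 of the 169 e14.5 neurons and enter the e14.5 levels given by age. With e14.5 clusters 1 and 2 and the numbered adult clusters alone, Scn7a around birth was -0.86 ± 0.30 (SE; edgeR adjusted p = 0.051), and Scn1a, Scn8a, Scn4b and Scn2b kept their calls.

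Adult wells with at least 2000 genes that the annotation leaves out, 242 in all, carried more glial RNA, with summed satellite markers of 10880–16351 CPM. Scn7a measured 134, 140, 59.4, 53.5 and 48.6 CPM there against 89.1, 116, 55.9, 45.9 and 68.0 in kept neurons, higher on 4 of 5 plates (0.18 ± 0.29 SE, edgeR adjusted p = 0.91). None of 6 members was called by edgeR or DESeq2, beside 4.78% of 10262 genes. Scn8a (-0.36, unadjusted p = 0.013, edgeR adjusted p = 0.18) was the only member under an unadjusted 0.05 and was called with the plate as a block (0.0023).

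Scn9a overlaps a transcript of the opposite strand. Gm13629, annotated as antisense (chr2:66440880-66546026, plus strand), starts 40 bases from the start of Scn1a and runs 65947 bases into Scn9a, with 180 exonic bases in common. In CPM of summed UMIs it measured 1.02 and 0 at e14.5, 6.58 and 6.53 at p0, 29.7–57.7 at p12 and 88.0–172 in the adult, while Scn9a summed the same way fell from 316–339 to 51.4–84.8. Its log2 fold changes were 3.38 ± 1.04 (SE), 2.90 ± 0.45 and 1.43 ± 0.25 (edgeR adjusted p = 0.026, 0.0005 and 0.0024). Whether counting used the strand is not given in the sources used here, so reads of the shared bases cannot be assigned. Scn2b overlaps Gm10684 (minus strand), which measured 0 CPM at e14.5 and p0, 2.56–6.67 at p12 and 5.03–12.6 in the adult. Scn1a overlaps Gm13630, with 53 UMIs in all.

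Genes whose pattern was most like a member's were ranked by Pearson r of log2(CPM + 1) over 23 sums of adult clusters and excluded neurons by plate, among 6752 genes. The sums share plates, depth and cluster makeup, and r is a description. For Scn7a they included Kcnip4, a Kv channel-interacting protein (0.89), and Tusc3 (0.88). For Scn4b they were Kirrel3 (0.85), Dgkg (0.84) and Ephx1 (0.83), and for Scn8a Sult4a1 (0.85), the AMPA receptor subunit Gria2 (0.80) and Hapln4 (0.77). Scn1a gave the weakest, Dnm1l (0.70), Emb (0.69) and Prepl (0.68). Scn2a was most like Elavl2 (0.80), Zfhx3 (0.79) and Tubb5 (0.78), and Scn9a like Rps28 (0.79), Pip4k2a (0.77) and Rpl10a-ps1 (0.75).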

How the data were processed

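Plate-seq libraries from single sorted neurons on 13 plates were used. The authors aligned reads with STAR to mm10 (GRCm38) and deposited raw UMI counts per gene and well, filtered by UMI total and Apoe share in their annotation; whether strand was used in counting is not given in the sources used here. UMIs were summed over kept neurons per plate, or per cluster and plate with at least 2 neurons, and tested by quasi-likelihood (edgeR 4.0.16, R 4.3.3) after filterByExpr and TMM scaling. Benjamini-Hochberg adjustment covered all genes tested, and a call needed an adjusted p under 0.05. SE is the absolute log2 fold change over the square root of the F statistic, and 95% intervals use the normal quantile of that SE. The fits were tested on simulated data. Alternatives were DESeq2 1.42.0, edgeR with the size factors of DESeq2, dropping the low-count filter, neurons thinned to 7000 UMIs, other neuron minimums, neurons of lower glial share, a plate block, other plate sets and leaving out each plate. Sums of one plate share that plate, which is the source of the pairing; across clusters, same-plate deviations correlated at a median r of 0.12 in the adult (25 pairs, -0.08 to 0.57), 0.30 with the excluded neurons, 0.08 for p12, 0.07 for p0 and 0.17 for e14.5 clusters. Contrasts within p12 plate sets, single plate sets for the ages and a glial share without S100b were added after the data were seen. Members and gene lists were chosen with earlier results of these data known. Named were the 8 members, other family and partner genes that passed (up to 5 a comparison by size of log2 fold change), and the 3 genes most alike each member, skipping predicted genes. Some genes that this rule names are not reported here.

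Tables and figures were made with matplotlib 3.10.9, pandas 2.3.3, scipy 1.17.1 and numpy 2.4.6 in Python 3.11.15. Depth per plate is given with the results; counting intervals (95%) and floors (3 UMIs) cover counting error only. Gene positions come from GENCODE M21 and upstream sequences from RefSeq, both on GRCm38.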

Additional observations from a re-analysis of the deposited data

Results flagged for a closer look

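Of 46 sets of 4 or 5 plates examined, 5 held a plate set apart from the rest by Dixon's criterion, which chance meets in about 1 in 20 sets. Scn9a in adult cluster 1 was 87.2 CPM on replicate 1 against 35.3 to 50.1 on the others. Scn9a in adult cluster 3 was 185 CPM on replicate 2, from 2 neurons, against 45.3 to 51.5. The other 3 rest on single UMIs beside plates at 0: Scn2b in adult cluster 3 on replicate 3 (1.68 CPM), Scn3b in adult cluster 1 on replicate 3 (1.67 CPM) and Scn3b in adult cluster 5 on replicate 1 (2.76 CPM).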

How the results depend on the processing

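Of 582 recomputed values of the 32 called differences of single genes, 501 kept their direction and call, 80 kept their direction without the call and 1 turned, Scn7a in excluded neurons (-0.42 with neurons of lower glial share, S100b left out). Some moves in the number of members called follow, and further lost calls are given with the results. With thinned neurons it was 3 from p0 to p12 (6 in the report), 0 among adult clusters (2), 0 for adult cluster 5 against 1 (2), 0 for excluded neurons (1), 1 among p12 clusters (7), 0 for p12 cluster 2 against 3 (3), 1 for p12 cluster 5 (4) and 0 for e14.5 cluster 1 against 2 (1); thinning also leaves fewer genes to test. With neurons of lower glial share it was 3 around birth (5), 0 for excluded neurons and 0 for p12 cluster 5; with S100b left out of that share it was 2 from p12 to adult (4) and 0 for excluded neurons. Without a filter it was 4 among adult clusters and 2 for e14.5 cluster 1 against 2, where sums of at least 1 neuron also gave 2 and DESeq2 gave 0. From p12 to adult, p12 replicates 1 and 2 alone gave 1 (4). Causes were otherwise not tested.

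With the plate as a replicate block, 1 member was called for clusters 1 and 5 against 2 to 4 (0 in the report), 2 for excluded neurons (1), 2 for e14.5 cluster 1 against 2 (1) and 1 for left-out wells (0); the calls it changed are given with the results, and Scn7a in adult cluster 4 against 2 (2.13, edgeR adjusted p = 0.23) was called only with it (0.028) or without the filter. No paired analysis was possible between ages because a plate holds 1 age.

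Leaving out 1 plate gave 3 to 5 members around birth, 4 to 6 from p0 to p12, 1 to 4 from p12 to adult, 2 to 2 among adult clusters, 2 to 3 for cluster 5 against 1, 0 to 0 for clusters 1 and 5, 0 to 0 for excluded neurons, 3 to 7 among p12 clusters, 2 to 4 for p12 cluster 2 against 3, 0 to 4 for p12 cluster 5, 0 to 0 for left-out wells and 0 to 1 for adult plate sets. The tests of Scn2b and Scn3b in the adult and of Scn4b before p12 rest on few UMIs, and p12 clusters 2 and 5 on 8 neurons each.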
